A study of Mus musculus with 12 samples.

Results

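The transcription factors of the oligodendrocyte lineage examined here were Olig1, Olig2, Sox10, Myrf, Nkx2-2, Nkx6-2, Sox6, Sox8, Zfp488 and Tcf7l2, chosen by name as regulators of this lineage, and they are 10 of the 41388 genes in the count table. All 10 passed the filter on low counts in each comparison. The study compared the prefrontal cortex (PFC) of male Swiss Webster mice aged 10 weeks that differed in their exposure to microbes. Conventionally raised mice (CON) carried a normal microbiota throughout life. Germ-free mice (GF) were reared without microbes. The exGF mice were born and reared germ-free until weaning and were colonized from postnatal day 21. GF mice were kept in isolators, whereas CON mice and, from weaning, exGF mice were kept in the standard animal unit. GF and CON mice descended from separate breeding pairs, and exGF mice came from the germ-free stock. The medial PFC was dissected by hand from fresh tissue, and polyA RNA was sequenced in 4 libraries per group (12 in all). Each library pooled RNA of 2 to 3 animals, and p-values here measure the spread between pools rather than between single mice.

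Oligodendrocytes form the myelin sheaths of central axons. Olig2 and Nkx2-2 help to specify their precursors from neural progenitors, Sox10 is kept on from the precursor to the mature cell, and Myrf is switched on when precursors leave the cell cycle and begin to make myelin. Other factors, such as Sox6, hold precursors back from terminal differentiation, so the set spans factors that favour and factors that delay myelination.

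Counts on genes had a median of 25210592 in CON, 18818716 in GF and 26345712 in exGF libraries, and GF replicate 1 was the shallowest with 13280926. The 4 exGF columns are named GFR1 to GFR4 in the table and carry no link to a replicate number, so they are named that way here. Differences between libraries of a group were larger than counting error, with a mean chi-square per gene of 9.26 to 40.2 where counting error alone gives about 1. Positions below are from GENCODE vM21 on GRCm38, 1-based, and not from the annotation release used for counting.

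Olig2 (16:91225457-91228677, plus strand) and Olig1 (16:91269772-91271933, plus strand) lie on chromosome 16 with their starts 44.3 kb apart. Sox10 lies at 15:79154908-79165240 on the minus strand, Sox8 at 17:25565892-25570686 on the minus strand and Sox6 at 7:115470872-116038796 on the minus strand. Myrf lies at 19:10208272-10240748 on the minus strand, and Tcf7l2 at 19:55741820-55933654 on the plus strand. Nkx2-2 lies at 2:147177546-147194243, Nkx6-2 at 7:139579376-139582797 and Zfp488 at 14:33967070-33978764, each on the minus strand. All 10 are protein-coding, and counts here are pairs on all exons of a gene. Exons of 4 factors overlap an antisense gene, and since pairs were counted without regard to strand, reads of the partners cannot be told apart there. In the counting mode used (intersection-nonempty), a pair lying only in the shared stretch is ambiguous and given to neither gene. The shared stretch covers 12.9% of the exon bases of Nkx6-2 (with Inpp5a), 10.6% of Sox8 (with 2810468N07Rik), 9.67% of Nkx2-2 (with Nkx2-2os) and 7.26% of Olig1 (with Gm15966). Gm15966 had 0 counts in every library and Nkx2-2os at most 7.

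Per exon length, as a share of all transcripts (TPM), the factors covered a wide range of levels in CON mice. Olig1, a basic helix-loop-helix factor needed for myelin repair, stood highest at 88.8 ± 10.99 TPM (SD, n = 4). Sox8 (36.0 ± 5.25 TPM), Olig2 (26.8 ± 4.57 TPM) and Sox10 (24.98 ± 3.13 TPM) followed, and their ranges overlapped from each to the next. Myrf had a level of 8.43 ± 0.901 TPM and Sox6 of 5.26 ± 0.935 TPM. Nkx6-2 (4.89 ± 1.60 TPM), Nkx2-2 (3.08 ± 0.906 TPM) and Zfp488 (2.59 ± 0.356 TPM) stood close together, and Tcf7l2 was lowest at 1.06 ± 0.257 TPM. The steps from Olig1 to Sox8, from Sox10 to Myrf, from Myrf to Sox6 and from Zfp488 to Tcf7l2 separated all 4 CON libraries of each gene, while the other neighbours in the order overlapped. In GF the TPM level of Nkx6-2 (8.80 ± 3.67) stood above that of Sox6 (4.995 ± 0.383) in every library, whereas in exGF the order of these genes was that of CON and their ranges overlapped.

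**Figure D1:**
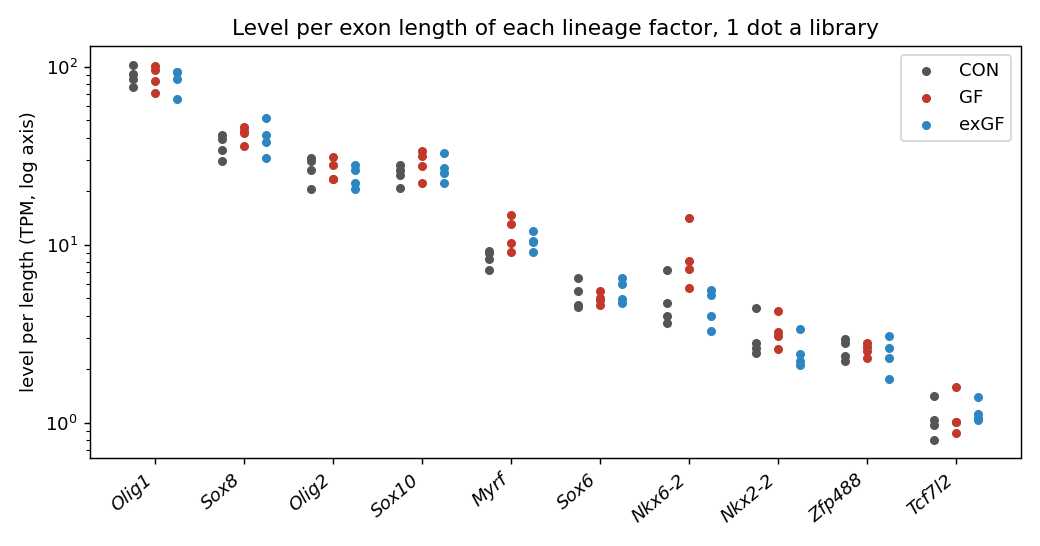
Level per exon length (TPM, log axis) of each factor in the 12 libraries, 1 dot a library, in grey for CON, red for GF and blue for exGF. Olig1 stands highest in every group and Tcf7l2 lowest, and the red dots of Nkx6-2 lie above those of Sox6.

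The question of the comparison of GF with CON was how life without microbes relates to gene levels in the PFC. Housing and breeding pairs also differed between these groups, and their part cannot be told apart from that of microbes. Myrf and Nkx6-2 had the largest differences, with higher mean levels in GF. Olig1, Olig2 and Sox6 differed by 0.05 or less on the log2 scale. None of the 10 factors had an adjusted p under 0.1 in the quasi-likelihood test of edgeR, adjusted over all genes after Benjamini-Hochberg (0 of 10 called, where 0.251% of the 15542 genes tested were called). At an unadjusted p under 0.05 there were 3 (Myrf, Nkx6-2 and Sox8), all with higher levels in GF, against 8.69% of all genes and 4.75% that were higher in GF. DESeq2 called 1, Myrf (1.20% of all genes by that tool), and limma-voom called 0 (0.302% of all genes). All 10 log2 fold changes were above 0, with Sox6 at 0.00 and negative in 9 of 17 alternatives. Their median was 0.18 against 0.01 over all genes tested. It was 0.11 without GF replicate 2 or CON replicate 1, 0.28 without CON replicate 2 and 0.08 by DESeq2.

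Myrf encodes a membrane-bound factor that cleaves itself and then enters the nucleus to switch on myelin genes. Its normalised level scaled by TMM to the library size (CPM) was 23.3, 17.8, 19.99 and 21.5 in CON replicates 1 to 4. In GF replicates 1 to 4 it was 31.1, 24.8, 38.1 and 26.8 CPM, and in GFR1 to GFR4 it was 23.5, 24.3, 24.2 and 28.4 CPM. On this scale every GF library was above every CON library, and so was every exGF library. GF and CON also stood apart when scaled by counts on genes, RLE or the upper quartile, but as TPM the lowest GF library (9.12) lay below the highest CON library (9.21). Myrf was the only factor whose GF and CON libraries did not overlap in TMM-scaled CPM (1 of 10, where 5.08% of genes did not overlap and 2.53% did so with GF higher). The group means were 20.7 ± 2.31 CPM in CON and 30.2 ± 5.92 CPM in GF (SD, n = 4 each), a fold change of 1.46 with a 95% interval of 1.19 to 1.79. On the log2 scale this is 0.55 ± 0.14 (SE), with an unadjusted p of 0.00124 and an adjusted p of 0.177 by edgeR, which placed Myrf at rank 109 of 15542 genes. The adjusted p of Myrf ran from 0.0289 to 0.449 over 17 alternatives and was under 0.1 in 3 of them: with no filter on low counts (0.0289), by DESeq2 (0.0341) and without GF replicate 2 (0.0975).

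Nkx6-2 encodes a homeodomain repressor of mature oligodendrocytes. It had 2.71, 3.97, 2.15 and 1.90 CPM in CON replicates 1 to 4 and 4.31, 3.45, 8.17 and 4.24 CPM in GF replicates 1 to 4. GFR1 to GFR4 had 2.28, 1.68, 2.90 and 2.79 CPM. GF replicate 3 stood well above the others, and CON replicate 2 was above the lowest GF library, so these groups overlapped. The means were 2.68 ± 0.920 CPM in CON and 5.04 ± 2.12 CPM in GF. The log2 fold change was 0.92 ± 0.29 (95% interval 0.29 to 1.54), with an adjusted p of 0.341 by edgeR. Without GF replicate 3 it was 0.58 (adjusted p = 0.677 by edgeR). Without a filter on low counts the adjusted p was 0.0887, the lowest of 17 alternatives, and the highest was 0.677. Inpp5a, the antisense partner, had 42.9 ± 1.62 CPM in CON and 42.6 ± 2.37 CPM in GF (log2 fold change -0.01, adjusted p = 0.987 by edgeR).

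**Figure D2:**
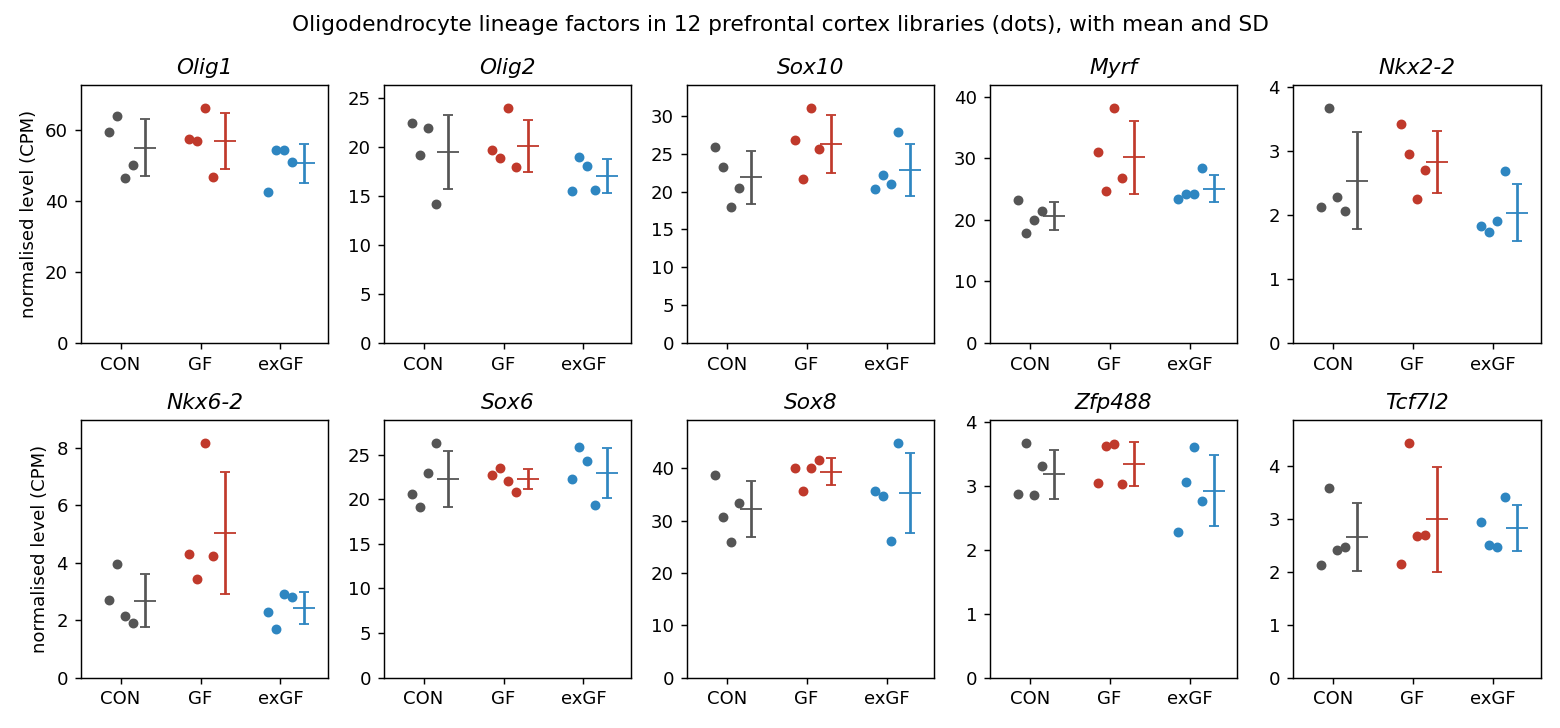
Normalised level (CPM, library sizes scaled by TMM) of each factor in the 4 CON, 4 GF and 4 exGF libraries, 1 dot a library, with the mean (dash) and SD (bar) beside the dots. On this scale all GF and exGF dots of Myrf lie above the CON dots, which did not hold for either group as TPM, and for Nkx6-2 GF replicate 3 stands apart at 8.17 CPM.

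RefSeq promoters (GRCm38.p6) were at hand for 7 of the 10 factors, with 13 entries, and Myrf, Sox10 and Olig1 had none. The 250 bases before the RefSeq start are shown for Nkx6-2, the factor with the largest difference, and for Olig2, a factor close to the CON level. Capitals mark CCAAT on either strand (ATTGG on the other), a common promoter motif.
Nkx6-2 (chr7:139582798-139583047, minus strand): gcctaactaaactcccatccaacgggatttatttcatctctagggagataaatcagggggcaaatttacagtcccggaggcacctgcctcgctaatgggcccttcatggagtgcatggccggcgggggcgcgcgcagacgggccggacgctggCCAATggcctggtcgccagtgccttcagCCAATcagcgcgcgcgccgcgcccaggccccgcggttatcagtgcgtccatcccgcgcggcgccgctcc
Olig2 (chr16:91225300-91225549, plus strand): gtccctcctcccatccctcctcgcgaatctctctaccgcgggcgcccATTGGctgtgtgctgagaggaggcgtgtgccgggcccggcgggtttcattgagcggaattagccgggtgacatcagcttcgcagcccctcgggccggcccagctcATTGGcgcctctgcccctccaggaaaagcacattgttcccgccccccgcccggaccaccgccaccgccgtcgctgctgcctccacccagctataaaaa
Both promoters held 2 matches, and 33.8% of 32851 promoters of the same length held at least 1. The GENCODE start of Olig2 lies inside the window shown. The letters AACAAT, a core of SOX sites, were found once in the Olig2 window (both strands searched) and not in that of Nkx6-2, and 9.42% of promoters held them. The letters CANNTG, the E-box read by helix-loop-helix factors, were found once in the Nkx6-2 window and not in that of Olig2, and 66.2% of promoters held them. The letters TAATTA, a form of homeobox site held by 4.84% of promoters, were in neither, and shorter forms were not searched. A match describes the letters only.

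The factors of the SoxE group came next. Sox10 is a high-mobility-group factor that works with Myrf on myelin genes, and Sox8 is its close relative. Sox8 had 38.6, 30.7, 25.9 and 33.4 CPM in CON replicates 1 to 4, 40.02, 35.6, 40.02 and 41.6 CPM in GF replicates 1 to 4, and 35.6, 34.6, 26.1 and 44.8 CPM in GFR1 to GFR4. CON replicate 1 lay within the GF range, and the exGF libraries spanned nearly both. The log2 fold change of Sox8 in GF against CON was 0.29 ± 0.12 (adjusted p = 0.482 by edgeR), and its antisense partner 2810468N07Rik had 0.21 (adjusted p = 0.718 by edgeR). Sox10 had 25.9, 23.2, 17.9 and 20.4 CPM in CON replicates 1 to 4, 26.8, 21.6, 31.0 and 25.7 CPM in GF replicates 1 to 4, and 20.3, 22.2, 20.95 and 27.9 CPM in GFR1 to GFR4. The groups overlapped. Its log2 fold change was 0.26 ± 0.13 (95% interval -0.02 to 0.55, adjusted p = 0.613 by edgeR).

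Of the factors that specify the lineage, Olig1 and Olig2 had mean levels close to CON, and the interval of Nkx2-2 was wider. Olig1 had 46.6 to 64.0 CPM in CON and 46.9 to 66.2 CPM in GF, with a log2 fold change of 0.05 and a 95% interval of -0.21 to 0.31. Olig2, which directs progenitors into the lineage, had 14.2 to 22.5 CPM in CON and 18.01 to 24.0 CPM in GF, with a log2 fold change of 0.05 (-0.26 to 0.36). For these genes the intervals leave room for differences of up to 0.31 and 0.36 on the log2 scale. Nkx2-2, a homeodomain factor that times the step from precursor to myelinating cell, had 2.06 to 3.67 CPM in CON and 2.26 to 3.42 CPM in GF (log2 fold change 0.16, -0.35 to 0.67).

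Sox6, Zfp488 and Tcf7l2 act around the onset of differentiation. Sox6, which with Sox5 restrains it, had 19.2 to 26.3 CPM in CON and 20.8 to 23.5 CPM in GF, with a log2 fold change of 0.00 (-0.24 to 0.24). Zfp488, a zinc finger partner of Olig2, had 2.87 to 3.67 CPM in CON and 3.03 to 3.65 CPM in GF (log2 fold change 0.08, -0.31 to 0.47). Tcf7l2, a Wnt effector present for a short time in new oligodendrocytes, had 2.13 to 3.58 CPM in CON and 2.16 to 4.43 CPM in GF (log2 fold change 0.20, -0.35 to 0.74). All of these groups overlapped. Tcf7l2, Nkx2-2, Zfp488 and Nkx6-2 rested on few counts, from 29 (Tcf7l2 in GF) to 152 (Nkx6-2 in GF) a library, and their intervals were the widest.

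Sox6 and Tcf7l2 are also made by neurons, Sox6 by cortical interneurons and Tcf7l2 by thalamic cells. The summed level of 8 interneuron genes was 811 to 1022 CPM in CON and 985 to 1119 CPM in GF. That of 7 thalamic genes was 77.4 to 87.9 CPM in CON and 73.3 to 81.7 CPM in GF. The part of these cells in the values of either factor was not tested.

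**Figure D3:**
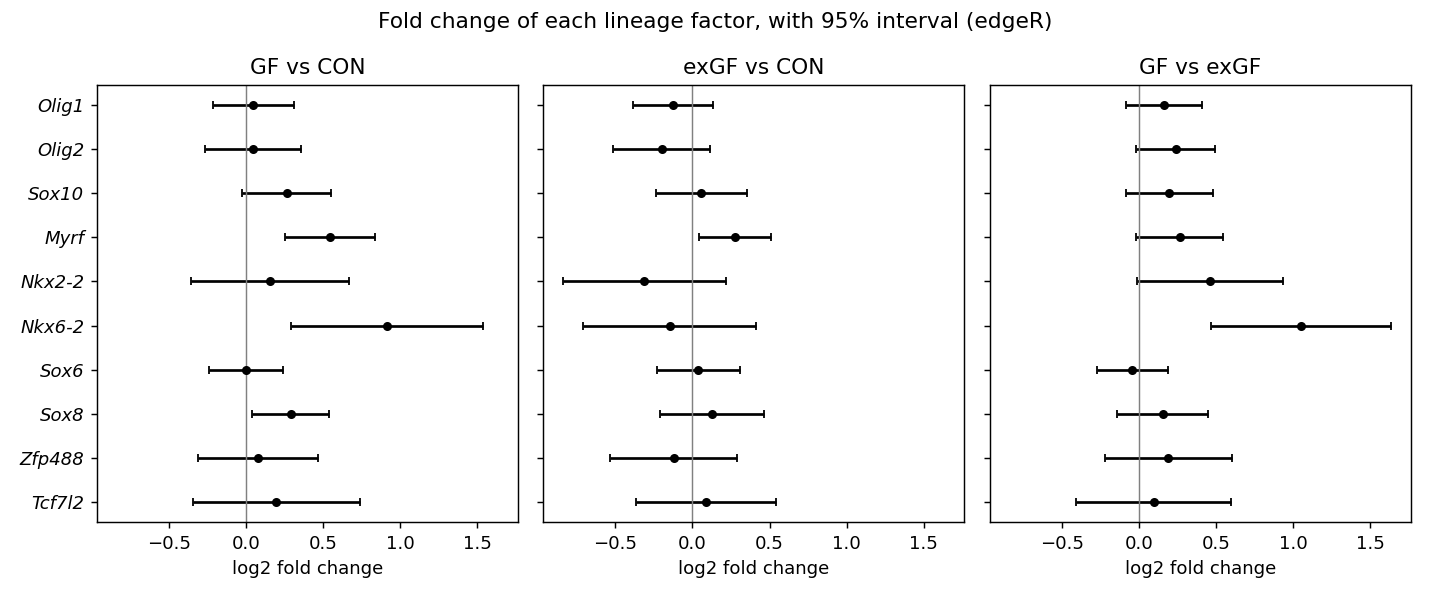
Log2 fold change of each factor (points) with its 95% interval (bars) by edgeR in the 3 comparisons. In GF against CON the intervals of Myrf, Nkx6-2 and Sox8 lie above 0, in exGF against CON only that of Myrf does, and in GF against exGF only that of Nkx6-2.

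The comparison of exGF with CON asks what remains of a germ-free start after colonization at weaning. Both GF and exGF mice came from the germ-free breeding stock and CON mice from another. A difference from CON that they share cannot be told apart from one between the stocks. Myrf had the largest positive difference, and the others lay on both sides of 0, with 5 positive and 5 negative values. By edgeR's quasi-likelihood test 0 of 10 factors were called (0.0696% of 15813 genes were), 1 had an unadjusted p under 0.05 (5.33% of genes, 2.46% with exGF higher), and both DESeq2 and limma-voom called 0 (0.274% and 0.0759% of genes). The median log2 fold change was -0.04 against -0.01 over all genes tested. Leaving out CON replicate 2 turned it to 0.04, and leaving out GFR1 to 0.03. This comparison and that of GF with CON share the 4 CON libraries.

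Myrf was 25.1 ± 2.24 CPM in exGF, and it was the only factor whose exGF and CON libraries did not overlap in TMM-scaled CPM (1 of 10, where 3.31% of genes did not overlap and 1.78% did so with exGF higher). The lowest exGF library, at 23.5 CPM, was just above the highest CON library, at 23.3 CPM. The groups overlapped when scaled by counts on genes (lowest exGF 22.9, highest CON 23.2), by the upper quartile or as TPM, so the separation depended on the scaling. The log2 fold change was 0.28 ± 0.11 (95% interval 0.04 to 0.51), with an unadjusted p of 0.0243 and an adjusted p of 0.832 by edgeR, and the adjusted p was 0.549 or more in the 16 alternatives. Nkx6-2, at 2.41 ± 0.556 CPM in exGF, had a log2 fold change of -0.15 (-0.71 to 0.41). The lowest value belonged to Nkx2-2, at 1.73 to 2.69 CPM in exGF, with a log2 fold change of -0.31 (-0.84 to 0.22). Olig2 had -0.20, Olig1 -0.12 and Zfp488 -0.12 on the log2 scale, and Sox8 (0.13), Tcf7l2 (0.09), Sox10 (0.06) and Sox6 (0.04) were above 0. Every interval other than that of Myrf included 0.

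GF and exGF mice differ in whether they were colonized after weaning. From weaning on they also differed in housing (isolators against the standard unit), and colonization and housing cannot be told apart here. Nkx6-2 differed most between them, and 9 of 10 factors had a positive value, Sox6 (-0.04) being the exception. By edgeR's quasi-likelihood test 0 of 10 factors were called (0% of 15569 genes were), 1 had an unadjusted p under 0.05 (6.65% of genes, 3.35% with GF higher), DESeq2 called 0 (0.0856% of genes) and limma-voom called 0 (0% of genes). The median log2 fold change was 0.19 against 0.00 over all genes tested.

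Nkx6-2 was the only factor whose GF and exGF libraries did not overlap (1 of 10, where 3.32% of genes did not overlap and 1.55% did so with GF higher). The lowest GF library had 3.45 CPM and the highest exGF library 2.90 CPM. Its log2 fold change was 1.05 ± 0.27, a fold change of 2.07 with a 95% interval of 1.38 to 3.11, with an unadjusted p of 0.00185 and rank 31 of 15569 genes. The adjusted p was 0.736 by edgeR and at least 0.121 in the 16 alternatives. Without GF replicate 3, the highest library, the log2 fold change was 0.71. Nkx2-2 had a log2 fold change of 0.46 (-0.01 to 0.94), Myrf of 0.26 (-0.02 to 0.55) and Olig2 of 0.24 (-0.02 to 0.49). Sox10 (0.20), Zfp488 (0.19), Olig1 (0.17), Sox8 (0.15) and Tcf7l2 (0.10) had intervals that included 0 as well.

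The stage genes of the lineage were read beside the factors. Of 18 genes of mature oligodendrocytes, 8 rose in GF against CON by edgeR's test and 16 had an unadjusted p under 0.05, all positive. Over all genes 0.251% were called and 8.69% had an unadjusted p under 0.05. The called mature genes included Mobp (log2 fold change 0.99), Mal (0.89), Mbp (0.86) and Ermn (0.85), which encode myelin or oligodendrocyte cytoskeletal proteins, with adjusted p from 0.0120 to 0.0181 by edgeR. Mog (0.82), Cldn11 (0.75) and Tspan2 (0.72) were called as well, with adjusted p from 0.0168 to 0.0342 by edgeR. The smallest values of the list were those of Hapln2 (0.35) and Cnp (0.35). The median of the 18 genes was 0.69, against 0.18 for the 10 factors. Many of these genes are among those the study had marked as myelin-related on these same samples, so the count is not independent evidence of direction. In bulk tissue more cells of a type and more RNA per cell cannot be told apart. In exGF against CON 0 of the 18 were called by edgeR, 0 had an unadjusted p under 0.05 (5.33% of all genes), and the median was 0.15. In GF against exGF 0 were called, 12 had an unadjusted p under 0.05 (6.65% of all genes), and the median was 0.55.

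Of 7 genes of differentiating oligodendrocytes, Bcas1, which marks cells starting to myelinate, rose in GF against CON (log2 fold change 1.02, adjusted p = 0.0120 by edgeR). Enpp6, an enzyme of newly formed oligodendrocytes, had 0.60 (adjusted p = 0.426 by edgeR), while Bmp4 (-0.20) and Gpr17 (-0.16) lay below 0, and the median of the list was 0.00. Of 9 precursor genes measured, 0 were called by edgeR and 1 had an unadjusted p under 0.05 (8.69% of all genes), with a median of -0.02. That gene was Matn4 (-0.33). The receptor Pdgfra had -0.02 and the proteoglycan gene Cspg4 had -0.01, and Neu4 (0.09) and Ptprz1 (0.04) were the highest. In exGF against CON the precursor median was -0.05, and in GF against exGF it was -0.07.

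A further 31 regulators of the lineage were listed, and 30 were tested, since Nkx6-1 was near 0 in every library. In GF against CON 0 were called by edgeR (0.251% of all genes were) and 3 of 30 had an unadjusted p under 0.05, near the 8.69% of all genes. The median of the 30 was 0.07 against 0.01 over all genes tested, with 22 of 30 positive. Egr2, an immediate early gene that drives myelination in Schwann cells, had the highest value (0.66, adjusted p = 0.298 by edgeR), followed by St18 (0.49, adjusted p = 0.596 by edgeR). Id2, an inhibitor of helix-loop-helix factors, had 0.31 with no overlap between groups (adjusted p = 0.317 by edgeR), where 5.08% of all genes did not overlap. Hes5, a Notch target that holds precursors back, was lowest (-0.43, adjusted p = 0.6002 by edgeR), followed by Sox4 (-0.30, adjusted p = 0.538 by edgeR). The median of these regulators was 0.00 in exGF against CON and 0.10 in GF against exGF, with 0 called by edgeR in either. At an unadjusted p under 0.05 there were 0 and 1, against 5.33% and 6.65% of all genes.

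**Figure D4:**
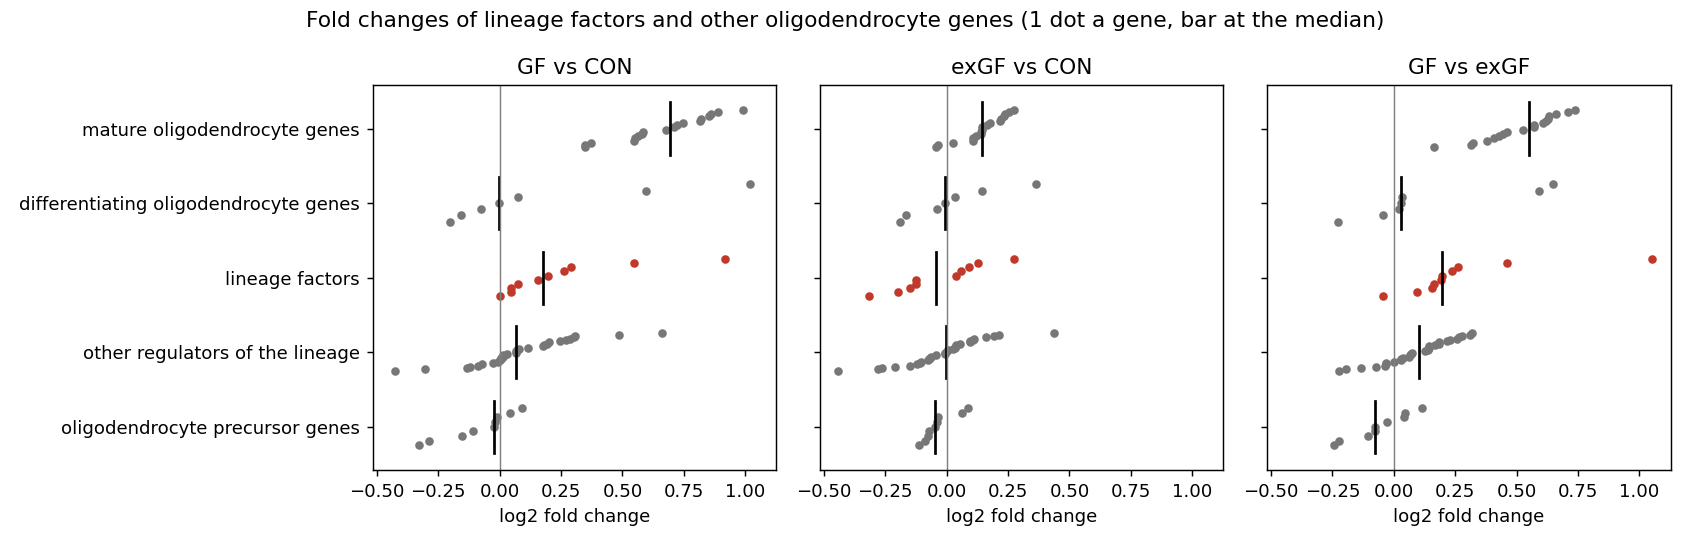
Log2 fold changes by edgeR of the lineage factors (red) and of 4 other lists of oligodendrocyte genes (grey), 1 dot a gene with a bar at the list's median, in the 3 comparisons. In GF against CON the median of the mature genes (0.69) lies to the right of that of the factors (0.18), and the medians of the other lists lie between -0.02 and 0.07.

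Markers of other cell types were read in the same libraries. Of 7 genes of the meninges, 2 fell in GF against CON, Slc6a13 (-0.94) and Col1a2 (-0.69), and 5 had an unadjusted p under 0.05. Over all genes in that comparison edgeR called 0.251%, and 8.69% had an unadjusted p under 0.05. The summed level of the meningeal genes was 168 to 233 CPM in CON, 110 to 150 CPM in GF and 127 to 171 CPM in exGF. For 6 microglial genes the sum was 328 to 385 CPM in CON, 297 to 336 CPM in GF and 284 to 303 CPM in exGF, with 0 called by edgeR in GF against CON and 2 lower at an unadjusted p under 0.05. In exGF against CON 6 of 7 meningeal genes and 5 of 6 microglial genes were lower at an unadjusted p under 0.05, with 0 of either called by edgeR. Over all genes 5.33% had such a p in that comparison. Striatal genes, which would mark tissue beside the PFC, summed to 184 to 409 CPM in CON and 217 to 238 CPM in GF. The part of these differences in the values of the lineage factors was not tested.

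Each factor was then set against the mature genes within each library, as its log2 CPM minus the mean log2 CPM of the 18 mature genes, which does not depend on how libraries are scaled. The mean of the mature genes was itself 0.65 higher in GF than in CON. A gene with no difference thus gives a value near -0.65, and a negative value is not particular to the factors. In GF against CON the value was negative for 9 of 10 factors, as it was for 98.5% of 16014 other genes, with a median of -0.64. It was lower in GF without overlap for 3 factors, Olig1 (-0.60), Zfp488 (-0.58) and Sox10 (-0.38), against 51.4% of those genes. For Sox10 the value was -0.61, -0.89, -0.92 and -0.89 in CON replicates 1 to 4 and -1.10, -1.21, -1.35 and -1.17 in GF replicates 1 to 4, lower in every GF library. For Olig1 it was 0.59, 0.57, 0.46 and 0.41 in CON and 0.00, 0.18, -0.26 and -0.31 in GF. Each of these had an exact permutation p of 0.0286 (two-sided), the smallest that 4 against 4 libraries can give, and an adjusted p of 0.214 over the 30 tests of 10 factors and 3 comparisons.

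Relative to the mature genes Myrf differed by -0.11 (exact permutation p = 0.429) and Nkx6-2 by 0.23 (exact permutation p = 0.314), both with overlap. The median of the other genes was -0.64, and 98.5% of them were negative. These p-values test whether a factor differed from the mature genes, not from the other genes. The values of Sox6 (-0.64), Olig2 (-0.59) and Sox8 (-0.35) each had an exact permutation p of 0.0571, and those of Tcf7l2 (-0.50) and Nkx2-2 (-0.47) had 0.2 and 0.171. In GF against exGF, where the mature mean was 0.52 higher in GF, only Sox8 did not overlap (-0.34, exact permutation p = 0.0286, adjusted p = 0.214), against 17.4% of the other genes that were lower without overlap. In exGF against CON all 10 factors overlapped, and 1.77% of the other genes were lower without overlap. No factor passed an adjusted p of 0.1 in any of the comparisons (0 of 30 tests).

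Libraries of a group also differed in their mature gene level, from 5.65 to 6.31 mean log2 CPM in GF, from 5.07 to 5.76 in exGF and from 5.09 to 5.43 in CON. Over the 12 libraries the deviation of each factor from its group mean was compared with that of the mature genes and of the precursor genes, in 20 relations. None passed an adjusted p of 0.1 in an exact permutation test within groups. Sox10 followed the mature genes most closely (Pearson r = 0.74, exact permutation p = 0.00933, adjusted p = 0.120, Spearman rho = 0.68, exact permutation p = 0.0234). Without GF replicate 3 and GFR4, the libraries farthest from the median, r was 0.50. Sox8 had r = 0.67 (rho = 0.64, exact permutation p = 0.0208 and 0.0459, adjusted p = 0.138 and 0.224), and r was 0.65 without those libraries. For Nkx6-2 r was 0.65 (rho = 0.61, exact permutation p = 0.0409 and 0.0671, adjusted p = 0.164 and 0.224) and 0.41 without them.

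Sox6 had the opposite sign (r = -0.63, rho = -0.69, exact permutation p = 0.0293 and 0.0242, adjusted p = 0.146 and 0.224), with r = -0.60 without these libraries. Myrf had r = 0.59 (rho = 0.48, exact permutation p = 0.0679 and 0.168, adjusted p = 0.226 and 0.387), which dropped to 0.11 without them, so that its relation rested on those libraries. Olig2 had r = -0.01. With the precursor genes the highest r was that of Zfp488 (r = 0.81, rho = 0.66, exact permutation p = 0.0120 and 0.0528, adjusted p = 0.120 and 0.224), and it was 0.57 without GFR1 and GFR3.

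**Figure D5:**
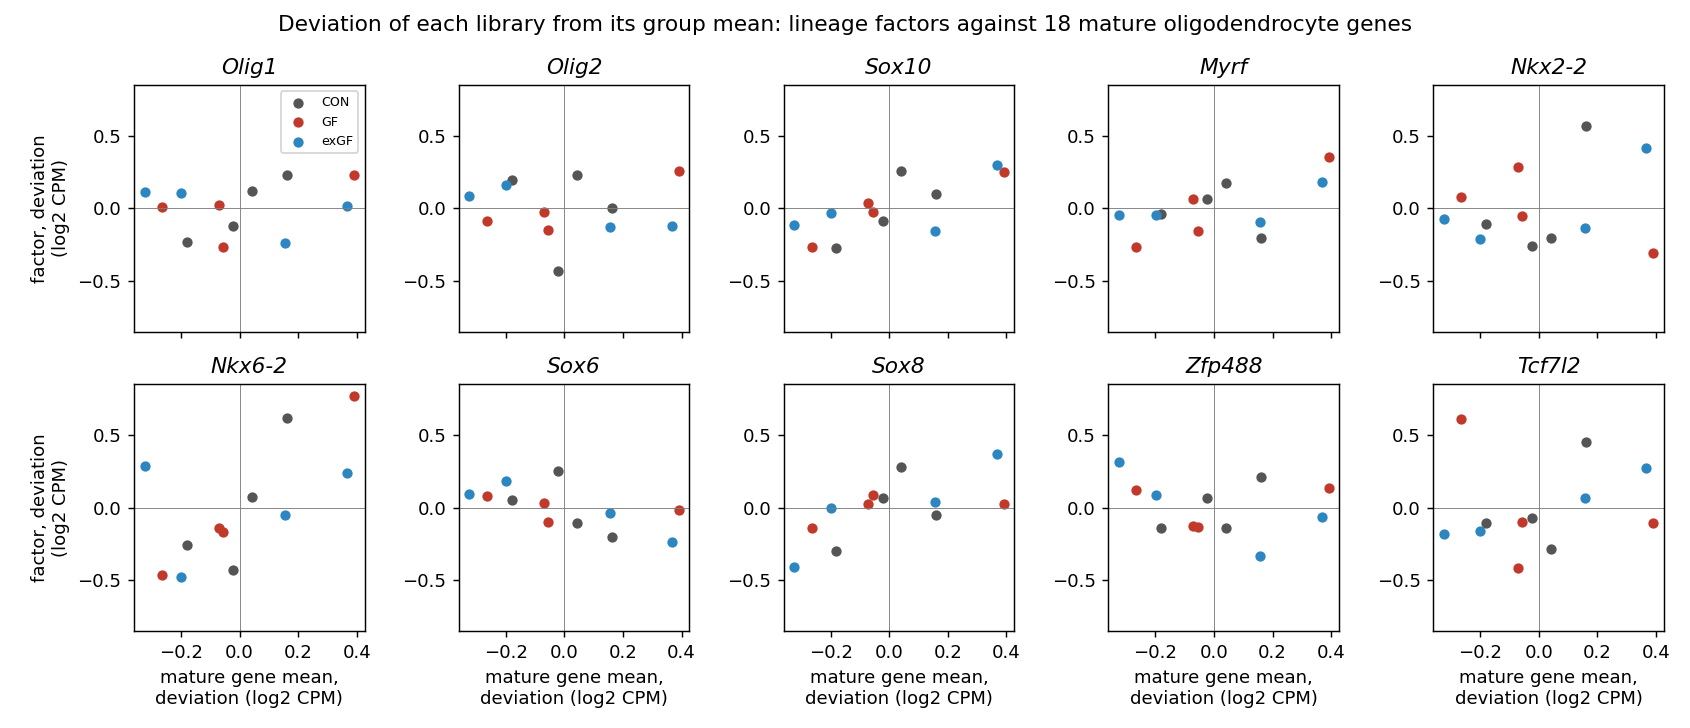
Deviation of each library's factor level (vertical, log2 CPM) and mature gene mean (horizontal, log2 CPM) from the group mean, 1 dot a library, in grey for CON, red for GF and blue for exGF. Dots of Sox10 run upward (r = 0.74), those of Sox6 downward (r = -0.63), and those of Olig2 in neither direction (r = -0.01).

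The genes whose within-group deviations most resembled those of a factor were sought among 15929 genes over the 12 libraries, as a description without a test. For Myrf these included Unc5b, a netrin receptor (r = 0.953), Tbc1d9b (0.914), Wdr34 (0.894) and Plxnb3, a semaphorin receptor (0.888). For Sox10 they were Gltp, a glycolipid transfer protein (0.956), Gna12 (0.912), Trim62 (0.904), Jam3 (0.901) and Naa80 (0.897). Olig1 was closest to Jund (0.948) and Dusp28 (0.939), Olig2 to Gm28386 (0.905) and Zfp566 (0.879), and Nkx2-2 to Rpl24 (0.962) and Gemin7 (0.950). With 12 libraries and so many genes, high values of r are reached by many genes. No oligodendrocyte gene of the lists above was among the first 5 for any of these factors. Those lists hold only some of the genes these cells make, and whether the nearest genes are made by oligodendrocytes was not tested.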

How the data were processed

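The authors used Trimmomatic 0.32 for trimming, STAR for alignment to GRCm38.p3, and counted read pairs on Ensembl genes with HTSeq 0.6.0, ignoring strand. The deposited table holds raw counts per gene, not normalized. Its rows for pairs given to no gene were left out (4.57% to 7.31% outside genes, 1.10% to 1.32% ambiguous and 13.0% to 19.2% aligned to several places). GENCODE vM21 gave names to 40254 of 41388 genes.

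Each pair of groups was fitted alone in R 4.3.3 with edgeR 4.0.16 (filterByExpr, TMM, quasi-likelihood test, Benjamini-Hochberg adjustment over all genes tested, call at an adjusted p under 0.1, the study's threshold). Over all 12 libraries 16032 genes passed the filter. CPM used library sizes scaled by TMM, and log2 CPM used a prior count of 1. TPM used the joined length of all annotated exons of a gene. Values within libraries were compared by exact permutation tests, two-sided. The fit was tested on simulated data. The alternatives comprised upper-quartile and RLE normalization, no filter, at least 10 counts, robust fitting, DESeq2 1.42.0 with a prior on fold changes, voom of limma 3.58.1, a single fit of 12 libraries, a replicate block, a threshold of 0.05 and each library left out. For correlations a prior count of 5 and RLE, and for overlap other scalings and the share of all genes relative to the mature genes, were chosen after seeing the data.

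The members and lists were chosen with earlier results of these data known. All 10 factors are named. From other lists, called genes, the 2 highest and 2 lowest values, genes near 0 and a few further members are named, and so are the genes most like Myrf, Sox10, Olig1, Olig2 and Nkx2-2 (the first 5 or, in part, the first 2). Genes of hindbrain and spinal cord (6 listed, none tested), choroid plexus (3 of 6 tested), astrocytes, endothelium, striatum, thalamus, interneurons and cortical excitatory neurons had 0 calls by edgeR in each comparison. Results of a few single genes are not reported here.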

Additional observations from a re-analysis of the deposited data

Results flagged for a closer look

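In 30 groups of 4 libraries (10 factors in 3 groups), 2 had a library whose gap to its nearest neighbour was over the critical value of Dixon's gap (0.834 of the group's range for Myrf and 0.858 for Nkx2-2), where chance gives about 1 in 20 groups, or 1.5 here. The Myrf level in GFR4 was 28.4 CPM, with the other exGF libraries at 23.5 to 24.3 CPM. The Nkx2-2 level in CON replicate 2 was 3.67 CPM, with the other CON libraries at 2.06 to 2.29 CPM.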

How the results depend on the processing

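In GF against CON the number of lineage factors called, 0 by edgeR, was 2 with no filter on low counts (Myrf and Nkx6-2, with 221 genes called in all against 39), 1 by DESeq2 (Myrf, with 195 genes in all) and 0 to 1 when a library was left out (Myrf without GF replicate 2); the cause was not tested. In exGF against CON and in GF against exGF it was 0 in all alternatives. Over all genes, the calls without a filter and by DESeq2 were 48 and 52 against 11 in exGF against CON, and 32 and 14 against 0 in GF against exGF.

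Sox6 in GF against CON turned negative with RLE (-0.00440) and upper-quartile normalization (-0.0102), with no filter (-0.0171), with at least 10 counts (-0.0115) and by DESeq2 (-0.00372). With a library left out the log2 fold change changed sign in GF against CON for Olig1 (-0.034 to 0.13), Olig2 (-0.077 to 0.12), Sox6 (-0.064 to 0.091) and Tcf7l2 (-0.068 to 0.37). It did so in exGF against CON for Sox10 (-0.037 to 0.16), Nkx6-2 (-0.28 to 0.11) and Sox6 (-0.023 to 0.13), and in GF against exGF for Sox6 (-0.12 to 0.020) and Tcf7l2 (-0.17 to 0.21). Relative to the mature genes the sign changed in exGF against CON for Sox10 (-0.14 to 0.038), Sox8 (-0.080 to 0.070), Tcf7l2 (-0.13 to 0.075) and Sox6 (-0.22 to 0.12), and in GF against exGF for Nkx2-2 (-0.16 to 0.19).

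With the replicate number as a block, 0 factors were called in GF against CON and 51 genes in all. Libraries with the same number did not deviate together (correlations of -0.03, -0.05, -0.04 and 0.03), and every CON library correlated more with another number. No block was fitted in the comparisons with exGF, since the numbers of the GFR columns were not matched to samples. Other scalings moved the median of all genes by less than 0.1 on the log2 scale.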
